A study of Rattus norvegicus with 18 samples.

Results

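The VEGF and angiopoietin family was followed in the lungs of F344 rats exposed to a multiwalled carbon nanotube (MWCNT). The 9 genes were taken by symbol from the 22081 genes of the deposited tables: the VEGF ligands Vegfa, Vegfb, Vegfc and Pgf, the VEGF receptors Flt1, Kdr and Flt4, and the angiopoietins Angpt1 and Angpt2. All 9 were found, and all 9 had enough counts to be tested at every time point.

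RNA-seq had been performed on lung tissue from 18 male F344 rats. Each of the time points (Years 0.5, 1 and 2) was represented by 3 rats given vehicle and 3 given the MWCNT. The MWCNT was MWNT-7, given at 0.5 mg/kg into the trachea once every 4 weeks from 9 weeks of age, while the control rats were instilled with the vehicle (saline with Tween 80) on the same schedule. The pieces came from the accessory lobe, and tissue with tumor nodules had been left out, so each value is an average over all cells of a small piece of non-nodular lung. Different rats were sampled at each time point, and dosing and age advanced together.

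The control libraries held 13297643 to 17868851 counts and the MWCNT libraries 14661589 to 21130757. The scaling factors for RNA composition (TMM) did not overlap between the groups, being 1.03 to 1.08 in control rats and 0.925 to 0.972 in MWCNT-treated rats. Markers of lung tissue were present in every library, with the alveolar type 2 gene Sftpc at 17721 TPM (transcript counts scaled for length and library total) or more and the endothelial gene Cldn5 at 313 TPM or more. Heart muscle markers summed to 52.7 to 619 CPM (TMM-adjusted counts scaled to a common library total) in control rats and to 11.7 to 221 CPM in MWCNT-treated rats, and their part in the results was not tested.

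VEGF ligands are secreted proteins that bind receptor tyrosine kinases on the surface of endothelial cells and control the growth, survival and permeability of vessels. Kdr (VEGF receptor 2) carries most of the Vegfa signal, Flt1 (VEGF receptor 1) binds Vegfa, Vegfb and Pgf tightly and limits the Vegfa that reaches Kdr, and Flt4 (VEGF receptor 3) receives Vegfc and Vegfd and is best known from lymphatic vessels. The angiopoietins act on a separate receptor, Tek (also called Tie2): Angpt1 keeps vessels quiet and tight, and Angpt2 competes with it in many settings. In the adult lung the alveolar epithelium is a rich source of Vegfa, and the dense capillary bed facing it carries Kdr and Flt1.

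The upstream sequences of Vegfc, Pgf and Flt4 are left out, and the part of upstream motifs in the results was not tested. Shown first are the upstream sequences of Vegfa, Vegfb, Flt1 and Kdr, which were picked with the results known. Each is the 250 bases before the annotated gene start, from RefSeq on build GRCr8, written 5′ to 3′ on the strand of the gene. Capitals mark matches, on either strand, to a GC box (GGGCGG), a hypoxia response core (ACGTG or GCGTG), an ETS core (CCGGAA or CAGGAA) and a TATA box (TATAAA). RefSeq windows were matched for 7 of the 9 genes, with 2 windows for Vegfa, of which the most upstream 1 is shown.
Vegfa, chr9:22452604-22452853, + strand: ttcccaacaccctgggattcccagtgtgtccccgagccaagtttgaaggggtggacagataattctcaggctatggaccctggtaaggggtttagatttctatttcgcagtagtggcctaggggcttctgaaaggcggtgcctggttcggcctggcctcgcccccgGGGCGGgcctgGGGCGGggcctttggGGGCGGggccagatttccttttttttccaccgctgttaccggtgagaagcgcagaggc
Vegfb, chr1:213607153-213607402, - strand: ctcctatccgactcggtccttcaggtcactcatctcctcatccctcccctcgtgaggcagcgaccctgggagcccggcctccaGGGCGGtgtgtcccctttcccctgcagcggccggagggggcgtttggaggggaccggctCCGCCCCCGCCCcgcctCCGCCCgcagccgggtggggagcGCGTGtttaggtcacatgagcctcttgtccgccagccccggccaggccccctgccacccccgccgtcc
Flt1, chr12:12333180-12333429, + strand: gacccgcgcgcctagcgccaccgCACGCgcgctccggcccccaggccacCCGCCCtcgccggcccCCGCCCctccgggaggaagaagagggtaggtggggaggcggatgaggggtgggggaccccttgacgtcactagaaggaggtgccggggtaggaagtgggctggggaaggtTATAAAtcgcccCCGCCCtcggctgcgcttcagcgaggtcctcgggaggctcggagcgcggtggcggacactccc
Kdr, chr14:32571813-32572062, + strand: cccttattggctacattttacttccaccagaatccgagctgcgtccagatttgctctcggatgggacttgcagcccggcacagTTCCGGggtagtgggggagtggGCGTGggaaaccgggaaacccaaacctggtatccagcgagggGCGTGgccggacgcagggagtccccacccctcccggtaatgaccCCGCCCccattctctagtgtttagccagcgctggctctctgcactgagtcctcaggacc

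The windows held 3 GC boxes for Vegfa, 4 for Vegfb, 3 for Flt1 and 1 for Kdr. The hypoxia core was found 2 times upstream of Kdr, 1 time each upstream of Flt1 and Vegfb, and in the Vegfa window not at all. These counts hold for the windows shown only, and bases farther upstream were not searched. An ETS core was found only in the Kdr window and a TATA box only in the Flt1 window among these 4. Across 33469 windows of the same length, 30.5% held a GC box, 36.7% a hypoxia core, 34.4% an ETS core and 12.9% a TATA box, and a match is a description and not a binding site.

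Among the family, Vegfa was the most abundant transcript in every group when levels were compared per length as TPM. In the control group at Year 0.5 the mean level was 769.5 ± 67.9 TPM for Vegfa (SD, n = 3, as for all means here), 266 ± 51.3 TPM for Kdr, 117 ± 5.47 TPM for Flt1, 41.6 ± 3.21 TPM for Angpt1, and 29.0 ± 2.29 TPM for Vegfb. Below these stood Vegfc at 24.9 ± 2.51 TPM and Flt4 at 23.1 ± 0.702 TPM, which differed by less than the SD of Vegfc, then Angpt2 at 11.04 ± 0.571 TPM and Pgf at 3.70 ± 0.945 TPM. Vegfa thus ranked 150 among the 22081 genes in these control lungs. In the MWCNT-treated group at Year 2 it was still the highest of the family, at 257 ± 37.7 TPM, with rank 498. In that group Vegfb, at 49.4 ± 5.95 TPM, stood beside Kdr, at 52.5 ± 11.6 TPM, with a difference smaller than the SD, and above Flt1, at 39.9 ± 3.90 TPM.

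Vegfa, Kdr, Flt1 and Flt4 were expressed at a lower level in MWCNT-treated lungs at all 3 time points, and Vegfb was expressed at a higher level at all 3. With a false discovery rate (FDR) below 0.05 over all genes tested, 8 of the 9 genes changed at Year 0.5 (7 lower, 1 higher). At Year 1 6 changed (5 lower, 1 higher) and at Year 2 5 changed (4 lower, 1 higher). Over all genes, 38.8% changed at Year 0.5, 41.2% at Year 1 and 49.2% at Year 2, and the genes that fell made up 18.6%, 19.6% and 24% of those tested and the genes that rose 20.2%, 21.6% and 25.2%. The 5 of 9 at Year 2 is close to the share over all genes. The median log2 fold change of the 9 genes was -0.52, -0.34 and -0.48 at the successive time points, against -0.021, 0.00053 and -0.011 over all genes tested. With the criterion for a differentially expressed gene (DEG) that also asks for an absolute log2 fold change above 1, 1 of the 9 genes was a DEG at Year 0.5 (Kdr), 0 at Year 1 (where 7 had an unadjusted p below 0.05) and 3 at Year 2 (Kdr, Vegfa and Flt1), while 9.1%, 10.2% and 16.4% of all genes were DEGs. Several of these values lay near the fold threshold. Kdr at Year 0.5 was -0.99 without treated rat 2 and Flt1 at Year 2 was -0.98 without control rat 2, which ended both DEG calls, and Vegfa became a DEG at Year 0.5 without treated rat 3 (-1.03). With limma on log2(TPM + 1), Vegfa (-1.03) was a DEG at Year 0.5, and Vegfa (-1.04) and Flt1 (-1.07) were DEGs at Year 1. Since whole tissue was sequenced, fewer cells of a type and less RNA per cell cannot be told apart in any of these values.

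**Figure D1:**
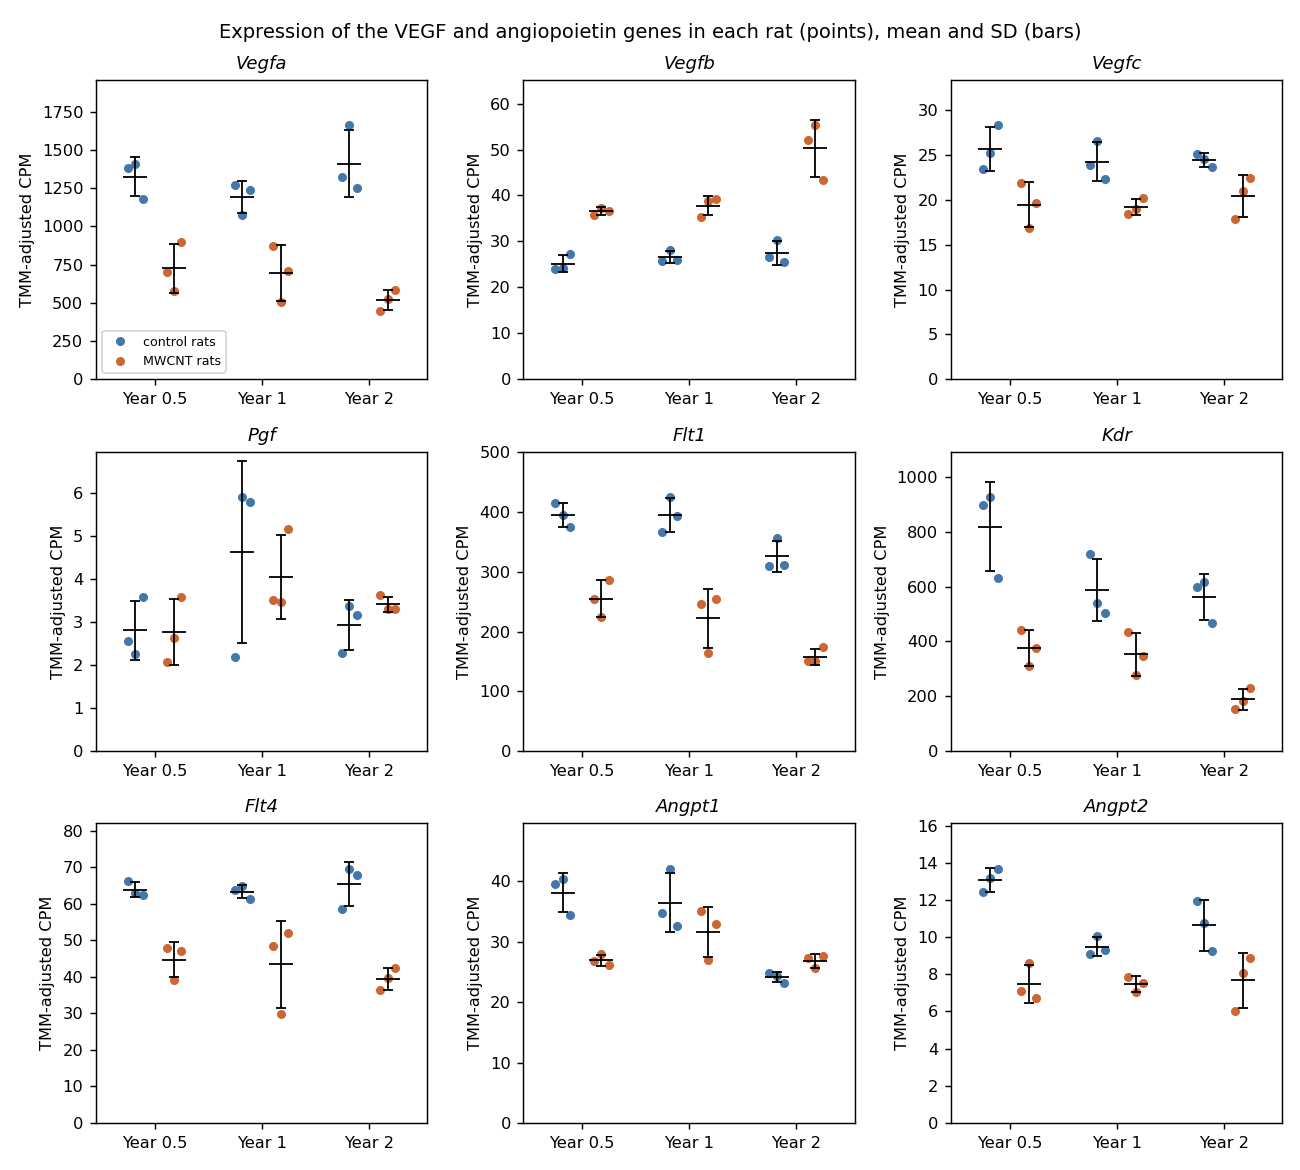
Level of each of the 9 genes in TMM-adjusted CPM (linear axis from 0) in each rat at Years 0.5, 1 and 2; blue points are control rats, orange points MWCNT-treated rats, long bars the mean and whiskers the SD of 3 rats. Vegfa points of MWCNT-treated rats, 449 to 896 CPM, all lie below the control points, 1075 to 1659 CPM, whereas Vegfb points of MWCNT-treated rats, 35.4 to 55.2 CPM, all lie above the control points, 23.9 to 30.4 CPM.

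Vegfa (ENSRNOG00000019598; build Rnor_6.0, chr9:17340341-17355681, + strand), the main ligand for vessel growth and permeability, fell at all 3 time points. At Year 0.5 it measured 1384, 1409 and 1180.2 TMM-adjusted CPM in the control rats and 702, 579 and 896 CPM in the MWCNT-treated rats. At Year 1 the values were 1271, 1075 and 1234 CPM in control rats against 874, 507 and 707 CPM in treated rats. At Year 2 they were 1323, 1659 and 1248 CPM against 449, 524 and 582 CPM. The groups did not overlap at any time point, and the gap was widest at Year 2, where the control mean was the highest and the treated mean the lowest of the 3 time points. The log2 fold change was -0.87 (SE 0.15, FDR 0.00181) at Year 0.5, -0.77 (SE 0.17, FDR 0.00732) at Year 1 and -1.45 (SE 0.13, FDR 2.75e-05) at Year 2, the last a 2.73-fold lower level. The effect at Year 2 was not shown to differ from the earlier ones: the difference on the log2 scale was -0.58 against Year 0.5 (SE 0.25, FDR 0.318) and -0.67 against Year 1 (SE 0.25, FDR 0.198).

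Vegfb (ENSRNOG00000021156; Rnor_6.0, chr1:222239022-222242644, - strand), a ligand of Flt1 that is not bound by Kdr, rose at all 3 time points. At Year 0.5 it measured 23.9, 24.2 and 27.2 CPM in control rats and 35.6, 37.4 and 36.6 CPM in MWCNT-treated rats. At Year 1 it measured 25.8, 28.1 and 26.0 CPM against 35.4, 38.8 and 39.2 CPM, and at Year 2 26.7, 30.4 and 25.5 CPM against 52.1, 55.2 and 43.4 CPM. Every treated rat was above every control rat, and the Year 2 treated rats were above all other rats. Its log2 fold change was 0.54 (SE 0.080, FDR 0.000909) at Year 0.5, 0.51 (SE 0.085, FDR 0.00165) at Year 1 and 0.86 (SE 0.11, FDR 0.000228) at Year 2, a 1.82-fold higher level.

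Vegfc (ENSRNOG00000011416; Rnor_6.0, chr16:40440207-40555576, - strand), the ligand of lymphatic growth, was lower by a small step. It measured 23.4, 25.3 and 28.3 CPM in control rats and 21.9, 16.9 and 19.7 CPM in MWCNT-treated rats at Year 0.5. At Year 1 it measured 23.9, 26.6 and 22.3 CPM against 18.4, 19.0 and 20.2 CPM, and at Year 2 25.1, 24.6 and 23.6 CPM against 17.8, 21.0 and 22.5 CPM. The groups did not overlap, but the gap was narrow, between 22.5 and 23.6 CPM at Year 2. The log2 fold change passed the threshold at Year 0.5 (-0.40, SE 0.12, FDR 0.0246) and Year 1 (-0.33, SE 0.098, FDR 0.0253) but not at Year 2 (-0.26, SE 0.11, FDR 0.0655). The call at Year 0.5 was lost without control rat 2 or 3 or without treated rat 2 or 3 (FDR 0.0516 to 0.104), and at Year 1 without control rat 2 (FDR 0.09999) or treated rat 1 (FDR 0.0696).

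Pgf (ENSRNOG00000005650; Rnor_6.0, chr6:108994018-109004598, - strand), the placental growth factor that binds Flt1, had 31 to 108 counts per rat. Control rats measured 2.19 to 5.89 CPM and MWCNT-treated rats 2.07 to 5.16 CPM over the 3 time points, and the groups overlapped at each of them. The log2 fold changes were -0.022 (SE 0.29), -0.20 (SE 0.35) and 0.21 (SE 0.24), with FDR of 0.959, 0.674 and 0.502. The SEs are larger than those of every other member, and the control rats of Year 1 alone ranged from 2.19 to 5.89 CPM.

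Kdr (ENSRNOG00000046829; Rnor_6.0, chr14:34727623-34787183, + strand), the main signalling receptor, fell at all 3 time points. At Year 0.5 it measured 897, 926 and 631 CPM in control rats and 442, 311 and 376 CPM in MWCNT-treated rats. At Year 1 the values were 717, 541 and 503 CPM against 433, 278 and 346 CPM, and at Year 2 599.5, 618 and 467 CPM against 153, 183 and 229.5 CPM. No treated rat reached the lowest control rat of its time point, and the Year 2 treated rats were the lowest of all 18. On the log2 scale the change was -1.12 (SE 0.16, FDR 0.000851) at Year 0.5, -0.73 (SE 0.17, FDR 0.01002) at Year 1 and -1.58 (SE 0.16, FDR 4.63e-05) at Year 2, the last a 2.99-fold lower level. The difference between the effects at Year 2 and Year 1 was -0.84 (SE 0.28, FDR 0.149) and did not pass. Control rat 3 of Year 0.5, the lowest in Kdr of its group, had the highest heart muscle marker sum of that group (619 CPM). Control rat 3 of Year 2 was likewise the lowest of its group in Kdr and the highest in this sum (618 CPM). At Year 1 the control rat highest in the sum (rat 2, 486 CPM) was not the lowest in Kdr. The part of heart muscle in the result was not tested. Without control rat 3 of Year 0.5 the Kdr log2 fold change at that time point was -1.28 (FDR 0.000236).

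Flt1 (ENSRNOG00000000940; Rnor_6.0, chr12:9034308-9205905, + strand), the high-affinity receptor that limits Vegfa, also fell at every time point. It measured 414, 396 and 375 CPM in control rats and 255, 224 and 286 CPM in MWCNT-treated rats at Year 0.5. At Year 1 it measured 367, 425 and 394 CPM against 246, 164 and 255 CPM, and at Year 2 311, 356 and 311 CPM against 150.3, 150.1 and 173.5 CPM. The groups stood apart at each time point. By edgeR the log2 fold change was -0.63 (SE 0.091, FDR 0.000812), then -0.83 (SE 0.15, FDR 0.00273), then -1.05 (SE 0.088, FDR 1.71e-05), a 2.07-fold lower level at Year 2.

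Flt4 (ENSRNOG00000002511; Rnor_6.0, chr10:35078726-35121599, + strand), the receptor of Vegfc, fell at every time point by less than Kdr. It measured 66.2, 63.1 and 62.6 CPM in control rats and 47.8, 39.1 and 47.0 CPM in MWCNT-treated rats at Year 0.5. At Year 1 it measured 63.8, 65.0 and 61.4 CPM against 48.4, 29.8 and 52.1 CPM, and at Year 2 58.5, 69.6 and 68.0 CPM against 36.4, 39.6 and 42.5 CPM. The treated rats were spread widest at Year 1, where treated rat 2 lay far below the other two. The log2 fold change was -0.52 (SE 0.087, FDR 0.00171), -0.54 (SE 0.17, FDR 0.0348) and -0.73 (SE 0.092, FDR 0.000190). At Year 1 the call was lost when any of the control rats was left out (FDR 0.0715 to 0.0907).

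Treated rat 2 of Year 1 had the lowest CPM of its group in Vegfa, Kdr, Flt1, Flt4, Angpt1, Angpt2 and, by a narrow margin, Pgf. In Vegfb and Vegfc it was not the lowest. The summed endothelial markers in that rat were 3030 CPM, against 3856 and 4023 CPM in the other treated rats of Year 1, and the summed macrophage markers were 6031 CPM, against 4622 and 4584 CPM. The number of family genes that changed at Year 1 was 6 with and without this rat.

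Angpt1 (ENSRNOG00000005854; Rnor_6.0, chr7:81342280-81592206, - strand), the ligand that keeps Tek active, was lower in treated rats at Year 0.5 and did not pass the threshold at Year 1 or Year 2. At Year 0.5 it measured 39.6, 40.4 and 34.5 CPM in control rats and 26.9, 27.9 and 26.1 CPM in MWCNT-treated rats. At Year 1 the values were 34.8, 42.1 and 32.6 CPM against 35.03, 27.1 and 32.9 CPM, and the groups overlapped. At Year 2 the control rats had come down to 24.8, 24.4 and 23.2 CPM. The treated rats of Year 2 measured 27.3, 25.6 and 27.6 CPM, each above every control rat of that time point. In TPM the Year 2 groups overlapped, at 25.9, 26.9 and 25.7 in control rats and 24.7, 24.1 and 26.0 in treated rats. Its log2 fold change was -0.50 (SE 0.084, FDR 0.00179) at Year 0.5, -0.20 (SE 0.13, FDR 0.238) at Year 1 and 0.15 (SE 0.083, FDR 0.176) at Year 2. The effect at Year 2 differed from that at Year 0.5 by 0.65 on the log2 scale (SE 0.15, FDR 0.0363), the only such difference among the 9 genes; 1.31% of all genes passed that test. This call was lost with 10 of the 18 rats when left out in turn (FDR 0.0533 to 0.131), among them every Year 2 rat, and with scaling by library size only (FDR 0.0655).

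Angpt2 (ENSRNOG00000016696; Rnor_6.0, chr16:75966352-76016195, + strand), which endothelial cells make and which can block Angpt1, was lower at Year 0.5. It measured 12.4, 13.2 and 13.7 CPM in control rats and 7.09, 8.63 and 6.71 CPM in MWCNT-treated rats at that time point. At Year 1 it measured 9.12, 10.1 and 9.31 CPM against 7.87, 7.03 and 7.54 CPM, and at Year 2 11.97, 10.7 and 9.23 CPM against 6.05, 8.10 and 8.89 CPM. The treated rats lay below the control rats at each time point, by a narrow margin at Year 2. On the log2 scale the change was -0.80 (SE 0.14, FDR 0.00217) at Year 0.5, -0.34 (SE 0.13, FDR 0.0609) at Year 1 and -0.48 (SE 0.18, FDR 0.0533) at Year 2. The Year 2 value passed the threshold without control rat 3 (FDR 0.0382) or treated rat 3 (FDR 0.0414). It also passed in 1 edgeR model of all 18 rats (FDR 0.0118) and with at least 10 counts in every rat (FDR 0.0493). Limma on log2(TPM + 1) (FDR 0.0126) and on log2(TPM + 0.1) (FDR 0.0187), library size only (FDR 0.0161) and upper quartile scaling (FDR 0.0358) passed it too. It did not pass without a count filter, with RLE scaling, with DESeq2 or with a replicate block.

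The CPM of treated rats lay wholly below those of control rats for 7 of the 9 genes at Year 0.5, 6 at Year 1 and 6 at Year 2, and wholly above for 1, 1 and 2. Over all genes tested, the groups did not overlap for 51.8%, 54.9% and 59.7%, with the treated rats below for 25.5%, 26.9% and 28.9% and above for 26.2%, 28% and 30.9%.

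**Figure D2:**
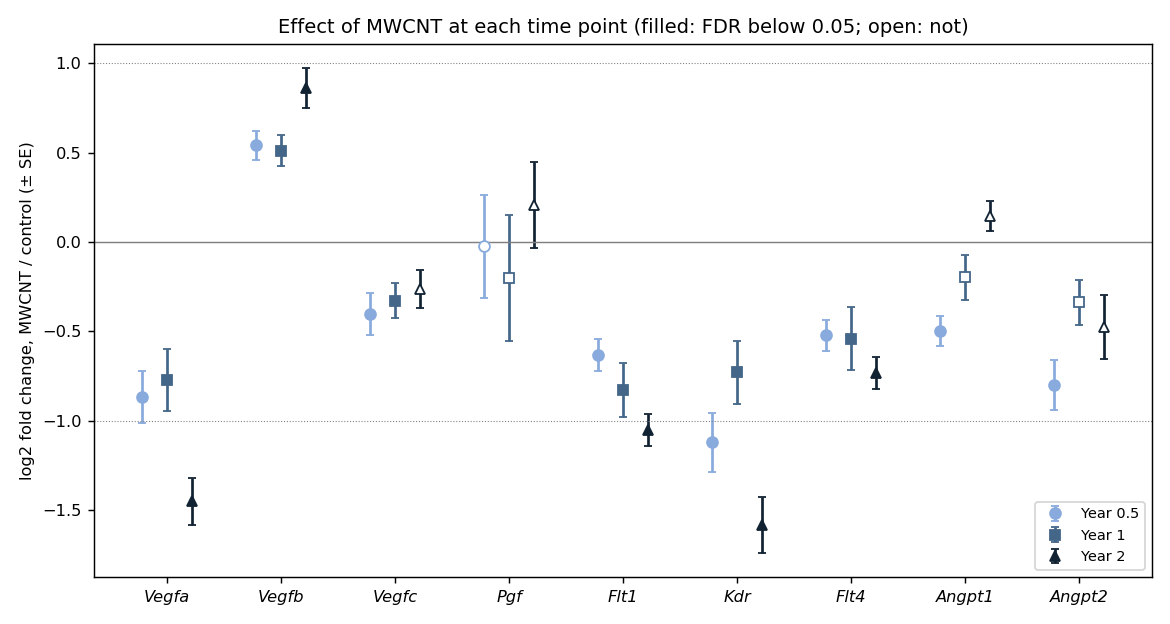
Log2 fold change of MWCNT-treated over control rats for each gene at Year 0.5 (circles), Year 1 (squares) and Year 2 (triangles), with bars of 1 SE from the edgeR fit; filled symbols passed an FDR of 0.05 and dotted lines mark log2 fold changes of 1 and -1. Kdr and Vegfa reach -1.58 and -1.45 at Year 2, Vegfb lies above 0 at each time point, and Angpt1 goes from -0.50 at Year 0.5 to 0.15 at Year 2.

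Within a treatment, none of the 9 genes changed between Year 0.5 and Year 1 in control rats or in treated rats by edgeR or by DESeq2 (0 each; 3 genes in control rats and 1 in treated rats had an unadjusted p below 0.05). Over all genes, 0% changed in control rats and 0.101% in treated rats. In control rats Angpt1 alone changed later, and it fell by Year 2 against Year 0.5 (-0.66, SE 0.10, FDR 0.00219) and against Year 1 (-0.60, SE 0.10, FDR 0.00643), where 6.65% and 7.93% of all genes changed. In MWCNT-treated rats Flt1, Kdr and Vegfb changed between Year 0.5 and Year 2, where 13.5% of all genes did. Kdr fell by 1.00 (SE 0.20, FDR 0.00330) and Flt1 fell by 0.69 (SE 0.13, FDR 0.00242) on the log2 scale, and Vegfb rose by 0.46 (SE 0.091, FDR 0.00300). DESeq2 called 4 genes in this comparison.

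The same 3 genes passed between Year 1 and Year 2 in treated rats, with 5.94% of all genes, at -0.90 for Kdr (SE 0.20, FDR 0.0131), -0.49 for Flt1 (SE 0.13, FDR 0.0366) and 0.41 for Vegfb (SE 0.091, FDR 0.0133). This count was carried by single rats: it was 0 without treated rat 1 of Year 1 and without treated rat 1 or 2 of Year 2, 2 without treated rat 3 of Year 1, and 5 without treated rat 2 of Year 1. Vegfa in treated rats was lower at Year 2 than at Year 0.5 by a log2 difference of -0.49 that did not pass (SE 0.18, FDR 0.0830). The effect of treatment differed between time points for 0 of the 9 genes between Year 0.5 and Year 1 and for 0 between Year 1 and Year 2 by edgeR and by DESeq2, with an unadjusted p below 0.05 for 1 and 4 genes, and 0% and 0.478% of all genes passed.

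The balance between the members also differed between the groups. The ratios below were taken within each rat from TPM, so that scaling between libraries does not enter, and they are given without a test. The share of Vegfa in the summed TPM of the 4 VEGF ligands was 93.2% ± 0.559 in control rats at Year 2 and 78.4% ± 2.88 in MWCNT-treated rats, while the share of Vegfb was 3.63% ± 0.189 and 15.3% ± 2.83. The ratio of Vegfa to Vegfb was 26.8 ± 4.26 in control rats and 10.02 ± 2.27 in treated rats at Year 0.5, 22.7 ± 2.99 and 9.37 ± 2.94 at Year 1, and 25.7 ± 1.54 and 5.29 ± 1.28 at Year 2. The ligand shares and the ratios of Vegfa to Vegfb and of Tek to Tie1 were picked with their values already known.

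The ratio of Flt1 to Kdr was 0.449 ± 0.0800 in control rats and 0.624 ± 0.0884 in treated rats at Year 0.5, 0.631 ± 0.143 and 0.575 ± 0.0834 at Year 1, and 0.533 ± 0.0679 and 0.775 ± 0.107 at Year 2. The groups overlapped at Year 0.5 and Year 1 and did not at Year 2, where control rats ranged from 0.471 to 0.606 and treated rats from 0.687 to 0.894. The ratio of Angpt2 to Angpt1 was 0.267 ± 0.0345 in control rats and 0.214 ± 0.0220 in treated rats at Year 0.5, 0.203 ± 0.0179 and 0.184 ± 0.0147 at Year 1, and 0.341 ± 0.0327 and 0.222 ± 0.0436 at Year 2. The treated rats lay below the control rats in this ratio at Year 0.5 and Year 2 and overlapped them at Year 1.

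**Figure D3:**
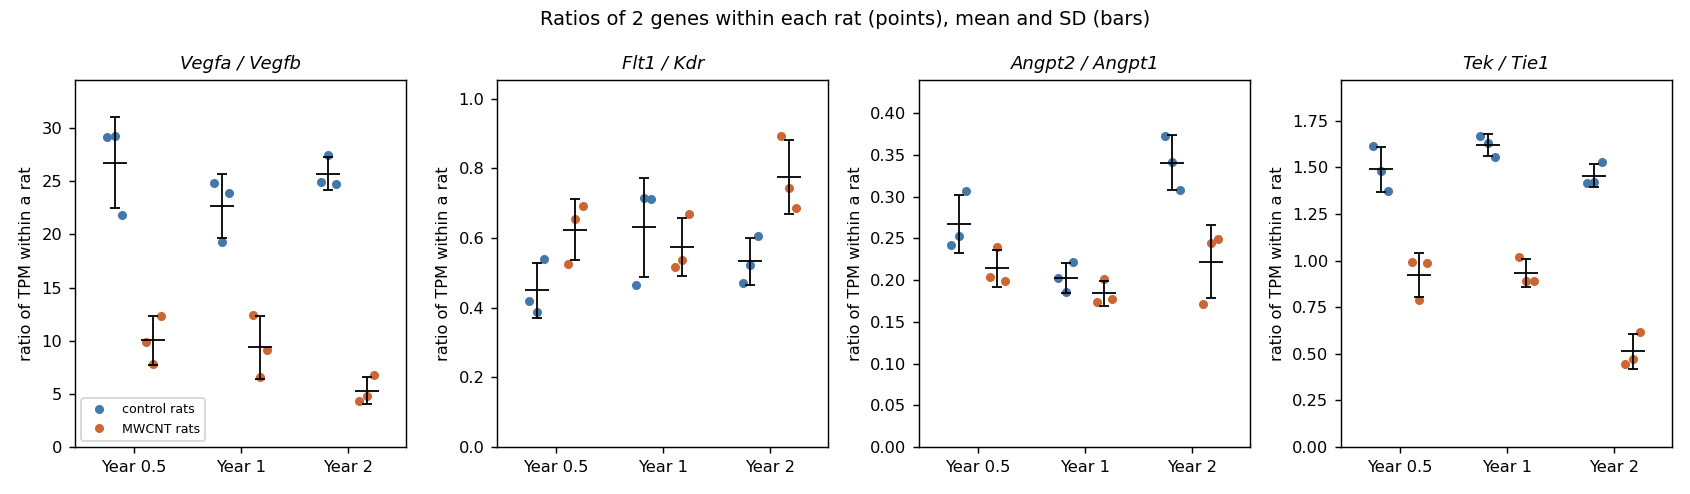
Ratio of TPM within each rat for 4 gene pairs (linear axes from 0); blue points are control rats, orange points MWCNT-treated rats, long bars the mean and whiskers the SD of 3 rats. The Vegfa to Vegfb ratio is 19.3 to 29.3 in control rats and 4.35 to 12.4 in treated rats, and the Tek to Tie1 ratio is 1.37 to 1.67 in control rats and 0.446 to 1.02 in treated rats.

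The remaining ligands, receptors and coreceptors of the pathway were taken from a list of 10 genes, of which 9 were in the tables and 8, 9 and 9 were tested at the successive time points. At Year 0.5, 5 of them were lower and 1 higher, at Year 1 5 lower and 0 higher, and at Year 2 5 lower and 1 higher. The list median was -0.47, -0.42 and -0.30. Of all genes tested, 18.6%, 19.6% and 24% fell and 20.2%, 21.6% and 25.2% rose.

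Tek, the receptor of both angiopoietins, fell at all 3 time points. It measured 707, 676 and 547 CPM in control rats and 329, 238 and 335 CPM in treated rats at Year 0.5, and 569, 613 and 598 CPM against 143, 167 and 201 CPM at Year 2. By edgeR the log2 fold change was -1.10 (SE 0.14, FDR 0.000453) at Year 0.5, -1.04 (SE 0.10, FDR 0.000103) at Year 1 and -1.81 (SE 0.12, FDR 4.17e-06) at Year 2. The sister receptor Tie1, which has no well-established ligand of its own and modulates Tek, was lower by -0.41 (FDR 0.00251), -0.25 (FDR 0.0386) and -0.30 (FDR 0.00943). The ratio of Tek to Tie1 was 1.49 ± 0.122 in control rats and 0.923 ± 0.116 in treated rats at Year 0.5, 1.62 ± 0.0575 and 0.932 ± 0.0742 at Year 1, and 1.46 ± 0.0626 and 0.512 ± 0.0937 at Year 2, without overlap. The difference in the Tek effect between Year 2 and Year 0.5 was -0.70 (SE 0.20, FDR 0.0871) and did not pass.

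Vegfd, the other ligand of Flt4, measured 40.5, 40.6 and 20.6 CPM in control rats and 22.8, 20.6 and 27.4 CPM in treated rats at Year 0.5, where the groups overlapped (-0.53, SE 0.24, FDR 0.109). It was lower at Year 1 (-0.73, SE 0.15, FDR 0.00468) and at Year 2 (-1.23, SE 0.20, FDR 0.000979). The coreceptors did not move together. Nrp1, which pairs with Kdr, was lower by -0.59 (FDR 0.00451), -0.42 (FDR 0.0171) and -0.53 (FDR 0.000255), whereas Nrp2, which pairs with Flt4, was higher by 0.19 at Year 0.5 (FDR 0.0321) and by 0.36 at Year 2 (FDR 0.00628), with 0.072 at Year 1 (FDR 0.559).

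Further down the pathway, of the 16 receptor signalling components (kinases, adaptors and Nos3) 4 were lower and 3 higher at Year 0.5. At Year 1 5 were lower and 1 higher, and at Year 2 5 were lower and 3 higher. The list median was -0.037, -0.15 and -0.11. These counts lie near the share of all genes that changed, which was 38.8%, 41.2% and 49.2%. The ends of the list among genes that changed at Year 2 were the small heat shock protein Hspb1 (-0.79) and the protein kinase C gene Prkcb (0.79). The 9 genes known as targets of VEGF stimulation in endothelium had 6, 5 and 7 members lower and 1 higher at each time point, with medians of -1.01, -0.54 and -1.02.

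Esm1, a proteoglycan of endothelial tip cells that Vegfa induces, had the largest fall of that list at Year 2. It measured 178, 175 and 100.4 CPM in control rats and 41.1, 20.1 and 37.2 CPM in treated rats at Year 0.5, and 114.5, 102 and 96.1 CPM against 7.004, 12.1 and 11.7 CPM at Year 2. The log2 fold change was -2.21 (SE 0.28, FDR 0.000440), -1.88 (SE 0.29, FDR 0.00111) and -3.34 (SE 0.17, FDR 1.38e-06). Rcan1, a feedback inhibitor of calcineurin, was the member that rose, by 0.34, 0.42 and 0.30.

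Of 12 endothelial transcription factors, 11 were lower at Year 0.5 and 10 each at Year 1 and Year 2, with medians of -0.87, -0.76 and -1.23. Foxf1, a forkhead factor of the lung mesenchyme and endothelium, was lowest at Year 2 (-1.91, SE 0.15, FDR 1.09e-05), and Fli1 was higher then (0.26, SE 0.091, FDR 0.0404). The 10 secreted inhibitors of angiogenesis split, with 4 lower and 3 higher at Year 0.5, 5 lower and 4 higher at Year 1, and 6 lower and 4 higher at Year 2. Genes that fell made up 18.6%, 19.6% and 24% of all genes tested, and genes that rose 20.2%, 21.6% and 25.2%. Thbs2, a thrombospondin, rose from 6.81, 3.75 and 7.27 CPM in control rats to 109.9, 82.3 and 98.3 CPM in treated rats at Year 2 (log2 fold change 4.03, SE 0.21, FDR 1.37e-06), and Col4a3, a collagen of the alveolar basement membrane, fell (-1.23, SE 0.16, FDR 0.000227).

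Vegfa is a classic target of hypoxia-inducible factors, and those genes were read beside it. Among 10 hypoxia-sensing genes, 2 were lower at Year 0.5, 2 at Year 1 and 3 at Year 2, with 1 higher at Year 2. Epas1 (HIF-2 alpha), the form abundant in lung endothelium, was lower by -0.75 (FDR 0.000980), -0.83 (FDR 0.00163) and -1.28 (SE 0.12, FDR 2.61e-05), and Hif1a was higher at Year 2 (0.26, SE 0.089, FDR 0.0352). Of 13 hypoxia targets tested, 5, 5 and 6 were higher and 1, 1 and 2 lower, with Ndrg1 higher at Year 2 (2.06, SE 0.14, FDR 6.18e-06) and Bnip3 lower (-0.66, SE 0.13, FDR 0.00274). The other 7, 7 and 5 targets did not pass, and the list median was 0.12, -0.0037 and 0.19. Over all genes, 20.2%, 21.6% and 25.2% rose and 18.6%, 19.6% and 24% fell. The part of hypoxia in the change of Vegfa was not tested.

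**Figure D4:**
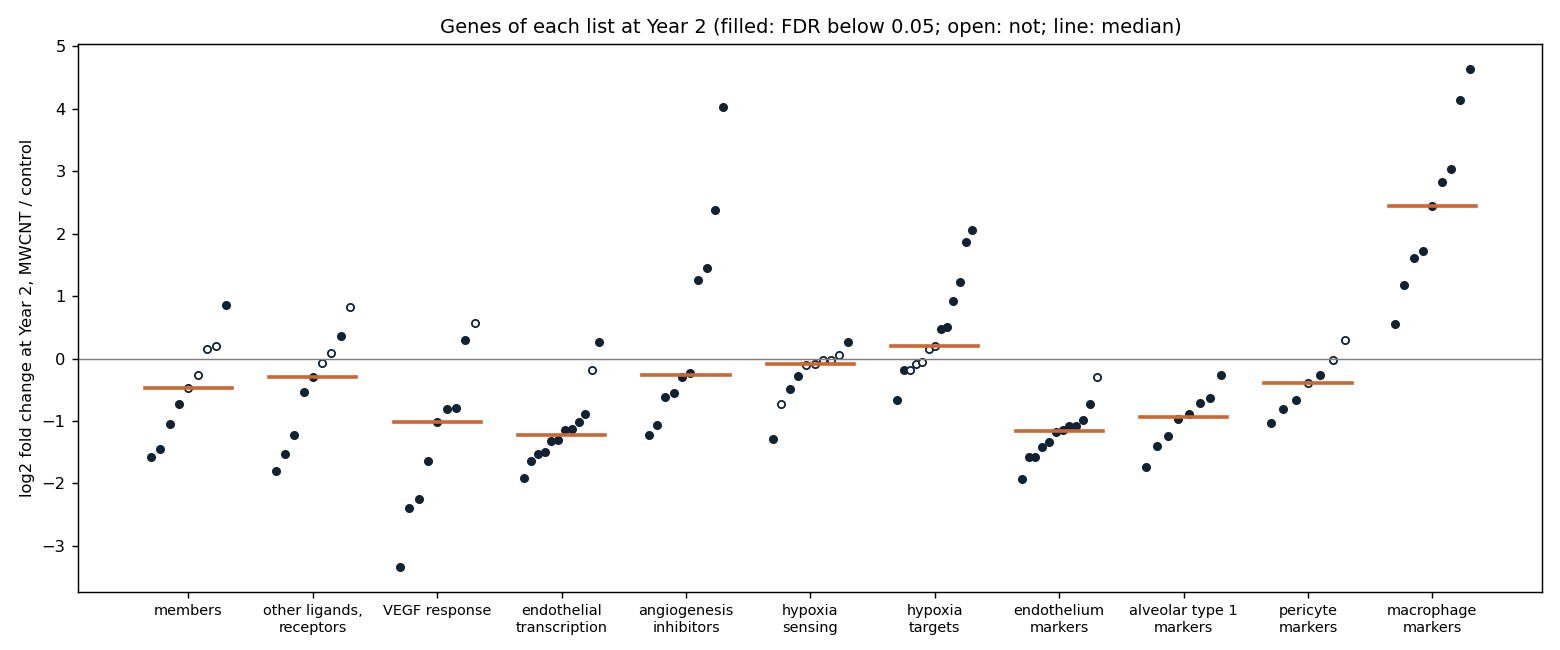
Log2 fold change of MWCNT-treated over control rats at Year 2 for each tested gene of the family ("members") and of 10 other lists; filled points passed an FDR of 0.05, open points did not, and orange lines are list medians. The median is -0.48 for the family, -1.02 for VEGF response genes, -1.16 for endothelium markers, -0.93 for alveolar type 1 markers and 2.44 for macrophage markers.

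Markers of the cells that carry or make these factors were read in the same comparisons, in which 18.6%, 19.6% and 24% of all genes fell. Of 14 endothelial markers 13 were in the tables and 12 were tested, of which 12, 11 and 11 were lower, with medians of -0.83, -0.71 and -1.16. Their summed level was 6281 to 7204 CPM in control rats and 3184 to 4209 CPM in treated rats at Year 0.5, 5801 to 6407 and 3030 to 4023 CPM at Year 1, and 5403 to 6709 and 2202 to 2997 CPM at Year 2, with no overlap. Clec14a, a vessel surface lectin, was the lowest at Year 2 (-1.92, SE 0.16, FDR 1.44e-05). The markers of lymphatic endothelium, the home of Flt4, had 3, 3 and 2 of 5 lower, and summed to 530.1 to 538 CPM in control rats and 187 to 207 CPM in treated rats at Year 2. At Year 2 the markers called lower were Lyve1 (-2.08) and Ccl21 (-1.08), whereas Mmrn1 (-0.40, FDR 0.0679), Prox1 (0.060, FDR 0.878) and Reln (0.083, FDR 0.744) did not pass.

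The all-gene shares for the counts here were 18.6%, 19.6% and 24% lower and 20.2%, 21.6% and 25.2% higher. Of the 8 markers of alveolar type 1 cells, an epithelial cell of the alveolus, 7, 6 and 8 were lower. Their sum was 5183 to 5789 CPM in control rats and 2975 to 3252 CPM in treated rats at Year 2. Rtkn2 had the largest fall among them (-1.73, SE 0.10, FDR 2.60e-06). The markers of alveolar type 2 cells, the other epithelial cell of the alveolus, moved the other way. All 8 of them were higher at Year 0.5 and Year 2 and 7 at Year 1, with medians of 0.91, 0.93 and 0.99, and their sum at Year 2 was 17717 to 20155 CPM in control rats and 37900 to 42245 CPM in treated rats. Pericyte markers, from cells that make Angpt1, had 7, 6 and 4 of 7 lower. They summed to 584 to 614 CPM in control rats and 419 to 455 CPM in treated rats at Year 0.5, and to 452 to 499 and 381 to 419 CPM at Year 2. By edgeR, the pericyte markers Pdgfrb (-0.025, FDR 0.819), Kcnj8 (-0.39, FDR 0.132) and Rgs5 (0.30, FDR 0.105) did not pass at Year 2. All 9 macrophage markers were higher at Year 0.5 and at Year 2 and 8 at Year 1, and they summed to 801 to 1008 CPM in control rats and 6682 to 7904 CPM in treated rats at Year 2. No gene of these lists was at 0 in every rat, and the part of cell composition in the changes of the family was not tested.

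Finally, the genes whose levels ran closest to Vegfa and Kdr were sought among 14834 genes, by the root mean square difference of log2 CPM after centring each gene on its mean over the 18 rats. For Vegfa these were Adgrl1 (0.0768), Rasip1 (0.0821) and Arap3 (0.105), against a median of 0.623 over all genes. For Kdr they were Ca4 (0.105), Slc29a1 (0.129) and Apln (0.147), against a median of 0.746. The log2 fold changes of Adgrl1 were -0.77, -0.81 and -1.46 and those of Ca4 -1.09, -0.66 and -1.64 at the successive time points, beside -0.87, -0.77 and -1.45 for Vegfa and -1.12, -0.73 and -1.58 for Kdr. The rats share treatment and library preparation, so that likeness over them is a description only.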

How the data were processed

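RNA from pieces of the accessory lobe had been sequenced. The authors mapped the reads to the rat genome (Rnor_6.0 per the labels) with CLC Genomics Workbench, and 3 tables, 1 per time point, were deposited. Used here were the deposited counts per gene, which are raw, and the TPM values that the authors' software made from them. The 36 per-sample columns of RPKM and CPM and the authors' comparison columns (fold changes, p-values) were not used. How multi-mapped reads were counted is not given in the sources used here, and the kit named does not mark strand, so reads of an overlapping antisense gene cannot be told apart.

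Counts were tested per time point with edgeR 4.0.16 (R 4.3.3) by the quasi-likelihood F test after filterByExpr (minimum count 10, minimum total 15) and TMM scaling, with Benjamini-Hochberg FDR over all genes tested. "Changed" meant an FDR below 0.05. Time effects and their difference between treatments came from 1 model of all 18 rats. CPM values were computed here from the counts with TMM factors over 18 rats. Scripts were tested on simulated data. DESeq2 1.42.0, limma 3.58.1 on log2(TPM + 1) and log2(TPM + 0.1), other scalings, filters and thresholds, a replicate block, and leaving out each rat were tried. The rats are separate animals, but the p-values rest on 3 per group.

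The members and lists were chosen with earlier results of these data known. Named were the 9 members, Vegfd, Tek, Tie1, Nrp1 and Nrp2, in each other pathway list the gene with the largest fall and the largest rise at Year 2 among those changed, and the 3 genes most like Vegfa and Kdr. Sftpc and Cldn5 were named as a check of the tissue, and other single marker genes were chosen after their values were seen. Of 200 listed genes, 5 were not found under the symbol used (Ccbe1, Car9, Pecam1, Cd93, Car4). Other symbols were not searched for them, and Ca4, named above for its likeness to Kdr, was not counted under Car4. Markers of further cell types (fibroblasts, smooth muscle, capillary subtypes, neutrophils, lymphocytes, platelets, mesothelium and dividing cells) are summarised in the closing section.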

Additional observations from a re-analysis of the deposited data

Results flagged for a closer look

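The effect of MWCNT on Angpt1 differed between time points: the log2 fold change of treated over control rats was -0.50 at Year 0.5 and 0.15 at Year 2, a difference of 0.65 (SE 0.15, FDR 0.0363, edgeR, n = 3 rats per group). Control rats fell from a mean of 38.2 CPM to 24.1 CPM between these time points, while treated rats stayed at 27.0 and 26.8 CPM. The interaction did not pass when any of 10 of the 18 rats was left out (FDR up to 0.131).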

How the results depend on the processing

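Every member that changed kept its direction under all alternatives run, and only values that had not passed changed sign. Pgf at Year 0.5 (-0.022) lay between -0.23 and 0.19 when single rats were dropped. Angpt1 at Year 2 (0.15) was -0.025 with library size only, -0.067 with limma on log2(TPM + 1), and -0.069 with the smaller pseudocount of 0.1. Library size only moved the median of all genes by -0.10, -0.13 and -0.17 at the successive time points, and relative to that shift Angpt1 was not lower. It moved calls of all genes at Year 2 from 3616 higher and 3451 lower to 2441 higher and 5258 lower, at Year 1 from 3095 and 2818 to 2147 and 4316, and at Year 0.5 from 2890 and 2659 to 2178 and 4020. Limma on log2(TPM + 1) gave 2126 higher and 5554 lower at Year 2, 1673 and 5301 at Year 1 and 1896 and 4333 at Year 0.5.

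The number of members changed was 7 at Year 1 and at Year 2 with library size only, upper quartile scaling or limma with either pseudocount. In these settings Angpt2, and at Year 2 Vegfc, passed as well. At Year 2 Angpt2 alone was added in the model of all 18 rats and with at least 10 counts in every rat. With an FDR below 0.01 the number of members changed was 3 at Year 1. Under the DEG criterion it was 1, 0 and 3 at the successive time points (0 to 2, 0 to 2 and 2 to 3 over the alternatives and left-out rats), and 0 for the interaction between Year 2 and Year 0.5, for both control comparisons with Year 2 and for both treated comparisons with Year 2. The interaction count between Year 2 and Year 0.5 was 0 with library size only. Leaving out 1 rat at a time gave counts of 7 to 8 at Year 0.5, 4 to 6 at Year 1, 5 to 6 at Year 2, 0 to 1 for that interaction, 1 to 2 in control rats between Year 1 and Year 2 (2 without control rat 1 of Year 1), 3 to 4 in treated rats between Year 0.5 and Year 2, and 0 to 5 in treated rats between Year 1 and Year 2. The cause of these differences was not tested.

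Same-numbered rats shared only a number: over 9 pairs their deviations from the group means correlated by -0.147 to 0.107, and 6 of 18 rats correlated best with their own number. With a replicate block the counts of members were 8, 6 and 5, as without it, and no call of a member changed. Leave-one-out fits left 2 rats in an arm. The alternatives were run for the 9 members and not for the other listed genes. Pgf had the fewest counts of the members, down to 31 in a rat, and depth and variation between rats were not separated for it.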

Other observations

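Other cell markers were read in the same comparisons. The shares of all genes that rose were 20.2%, 21.6% and 25.2%, and the shares that fell 18.6%, 19.6% and 24%. The neutrophil count at Year 0.5, the lymphocyte count at Year 1 and the mesothelial counts at Year 2 lie near these shares. So do the heart muscle counts at Year 1 and Year 2. All 7 smooth muscle markers were lower at each time point, with medians of -0.74, -0.96 and -0.91 (log2 fold change), and of 7 alveolar fibroblast markers 6, 4 and 6 were lower. The remaining fibroblast marker, Npnt, was higher at Year 0.5 (0.23, edgeR FDR 0.0226) and at Year 2 (0.44, FDR 0.00612). Of the markers of general capillary cells, all 4 in the tables were lower at each time point (medians -1.14, -0.78 and -1.49), and of 5 aerocyte markers 4 were lower at each time point. The fifth, Fibin, was higher at Year 0.5 (0.47, FDR 0.00953) and did not pass at Year 1 or Year 2. Of 7 lymphocyte markers 6, 1 and 5 were lower. The 5 markers of cell division were all higher at each time point. Of 6 neutrophil markers 1, 2 and 2 were higher, with 1 lower at Year 2. Of 4 mesothelial markers 0, 3 and 1 were higher, with 1 lower at Year 2; at Year 0.5 the edgeR test called 0. Of 4 platelet markers tested 1 was higher at each time point and 1, 3 and 2 were lower. Of 6, 6 and 5 heart muscle markers tested, 6, 1 and 1 were lower.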
